A study of Mus musculus with 5 samples.

Results

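The cells described here are the hypoxia-high and hypoxia-low cells of MMTV-PyMT organoids that had grown in fibrillar Collagen I, that is, cells selected on the measured transcripts of 5 hypoxia-inducible genes, Vegfa, Egln3, Ndrg1, Bhlhe40 and Ero1l. MMTV-PyMT organoids are cultures of mammary tumour cells from mice in which the MMTV promoter, active mainly in mammary epithelium, drives the polyoma middle T oncogene. All plates shared this genotype and the same medium with FGF2. Organoids had been cultured in BME, a basement membrane extract, were then embedded in either Collagen I or BME for 5 days, and were dissociated with enzymes. Live single cells, gated as DAPI-negative, were sorted into 384-well plates and their transcripts were counted by SORT-seq. The plates were 2 of Collagen I (replicates 1 and 3) and 3 of BME. No source used here says that they came from separate cultures. The p-values thus rest on how far the high versus low contrast varied between plates, and not on a spread between cultures. Wells with over 2000 counts (spike-ins left out) and under 8000 detected genes were ranked within their plate by the score, which is the sum of the 5 genes per 10000 counts of the well, and the top and the bottom 25% were taken. This left 232 and 213 of 384 wells in Collagen I replicates 1 and 3, which gave 58 and 53 wells per group. In all, 111 hypoxia-high and 111 hypoxia-low wells came from 445 ranked Collagen I wells, out of 1255 ranked and 1920 sorted wells in the series. Both groups share genotype, matrix, day and plate, and were told apart by the measured score alone.

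Cells sense oxygen through prolyl hydroxylases such as Egln1 and Egln3, which in the presence of oxygen mark the HIF alpha subunits for the ubiquitin ligase that contains Vhl. When oxygen is low, HIF-1 alpha (Hif1a) or HIF-2 alpha (Epas1) pairs with Arnt and binds hypoxia response elements with the core ACGTG or GCGTG near its target genes. The targets bring about glucose uptake and glycolysis, restrain mitochondrial respiration, buffer pH, attract vessels and modify collagen. In solid tumours this programme is found in cells far from vessels, and HIF can also be stabilised by growth factor signalling, so that the score names a transcript pattern and not a measured oxygen tension.

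The score was higher in the hypoxia-high wells by construction, and its values are given as a description. In replicate 1 it ranged from 81.9 to 238 with a median of 105.8 in hypoxia-high wells, and from 2.97 to 31.6 with a median of 17.3 in hypoxia-low wells. In replicate 3 the range was 85.8 to 202 with a median of 105.05 in hypoxia-high wells and 1.78 to 26.4 with a median of 14.4 in hypoxia-low wells. The distribution had no gap at either limit. The next well below the hypoxia-high group had a score of 79.2 in replicate 1 and 84.8 in replicate 3, and the next above the hypoxia-low group 31.7 and 26.9. No Collagen I well had a score of 0, and 94.8% of the hypoxia-low wells of replicate 1 and 77.4% of those of replicate 3 held an Egln3 transcript. In the BME plates the limits lay at 8.79 to 11.3 for the top and 3.11 to 3.20 for the bottom 25%, so that a hypoxia-low well of Collagen I could score higher than a hypoxia-high well of BME. In the deposited counts of these 5 genes over the ranked Collagen I wells, Ero1l, Vegfa and Egln3 each took 23.1% to 28.9% of the score, Ndrg1 17.05% and 18.1%, and Bhlhe40 only 3.51% and 2.63%.

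**Figure D1:**
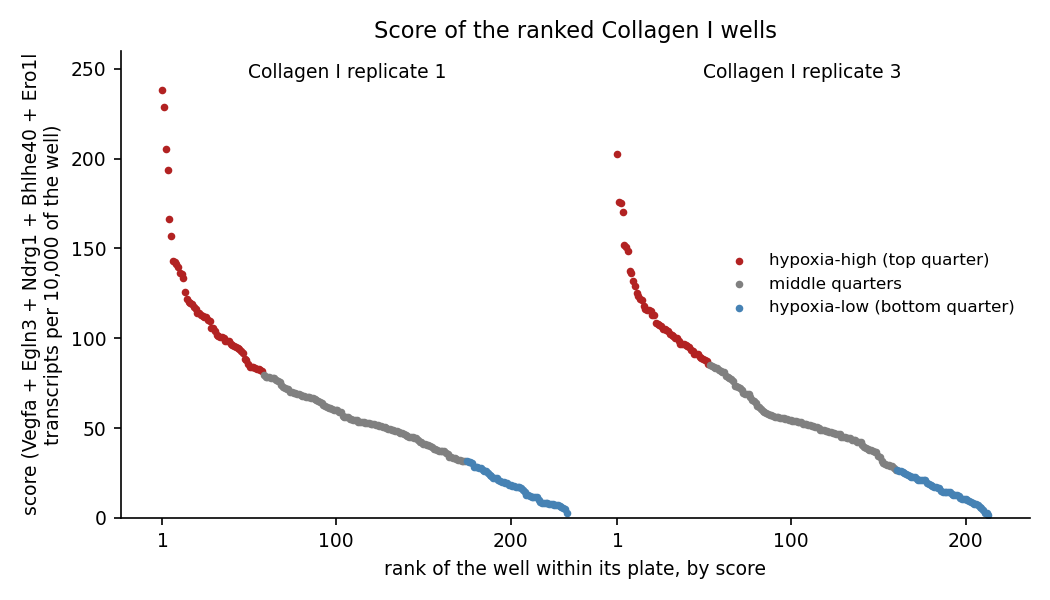
Score of each ranked Collagen I well (y axis, transcripts of the 5 genes per 10000 of the well) against its rank within the plate (x axis). Each point is 1 well, hypoxia-high wells in red, the middle wells in grey and hypoxia-low wells in blue. The curves run without a step at the limits of the groups, at scores of 81.9 and 31.6 in replicate 1 and of 85.8 and 26.4 in replicate 3.

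Since the ranking used these 5 genes, each was tested only after it had been left out of the score and the wells had been ranked anew on the other 4. Counts were summed over the wells of each group and plate, and the 4 sums were compared with the edgeR quasi-likelihood test with the plate as block and Benjamini-Hochberg adjustment over all genes of the fit (log2 fold change ± standard error, hypoxia-high over hypoxia-low, levels in counts per 1000000, CPM). Because a sum pools wells, a smaller share of expressing cells and less RNA per cell cannot be told apart in it. Ndrg1, a stress-responsive gene (GRCm38 chr15:66929318-66969640), had 2086 and 2128 CPM in hypoxia-high sums, against 202 and 155 CPM in hypoxia-low sums when ranked without it (log2 fold change 3.55 ± 0.15, adjusted p = 1.7e-08). Ero1l, the oxidase that renews disulfide bond formation in the endoplasmic reticulum (chr14:45283087-45318771), had 2757 and 2836 CPM in hypoxia-high and 498 and 474 CPM in hypoxia-low sums (log2 fold change 2.53 ± 0.12, adjusted p = 4.8e-10). Vegfa, the main angiogenic growth factor (chr17:46016993-46032369), had 2786 and 2452 CPM in hypoxia-high and 440.5 and 522 CPM in hypoxia-low sums (log2 fold change 2.51 ± 0.13, adjusted p = 1.3e-07). These 3 genes were separated in both plates by more than the spread between plates. Bhlhe40, a transcriptional repressor (chr6:108660629-108666925), had 362 and 175 CPM in hypoxia-high and 56.2 and 114 CPM in hypoxia-low sums (log2 fold change 1.84 ± 0.31, adjusted p = 1.6e-04), and its hypoxia-high level differed most between the plates. Egln3, an oxygen-sensing prolyl hydroxylase (chr12:54178981-54203860), had 2059 and 2072 CPM in hypoxia-high and 712 and 532 CPM in hypoxia-low sums (log2 fold change 1.76 ± 0.14, adjusted p = 2.0e-05). The log2 fold changes of Egln3 and Bhlhe40 were the smallest of the 5 and lay within a standard error of each other. All 5 held-out genes were thus called higher, in fits that called 20.9%, 23.7%, 21.7%, 26% and 25.1% of all genes in either direction when ranked without Vegfa, Egln3, Ndrg1, Bhlhe40 and Ero1l. Without replicate 1, in a fit that pools the spread over the plates of both matrices, 4 of the 5 were called.

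Besides the score, the groups of wells differed in depth, in cell cycle level and in the share of Malat1. The median hypoxia-high well held 4344 and 3144 counts in replicates 1 and 3, against 8149 and 4747 in hypoxia-low wells. The deepest hypoxia-high well of replicate 1 held 42799 of the 327758 counts in its sum, and weighs accordingly in the CPM of that sum. ERCC spike-ins took 6.18% and 10.6% of all counts in hypoxia-high and 1.53% and 2.37% in hypoxia-low wells. Malat1, a nuclear noncoding RNA, took 0.226% and 0.285% of the counts in hypoxia-high wells and 0.120% and 0.119% in hypoxia-low wells. Its part in the results was not tested on its own. When mitochondrial, ribosomal, Rn45s, Lars2 and Malat1 counts were left out together, 1398 genes were called, against 1444 with all counts kept. Transcripts of S phase and G2/M genes had medians of 11.4 and 9.54 per 10000 counts in hypoxia-high wells and 32.3 and 51.6 in hypoxia-low wells. Across the ranked wells of a plate, Spearman's rho of the score was -0.37 (232 wells of replicate 1) and -0.26 (213 wells of replicate 3) with the well's counts and -0.46 and -0.41 with its cell cycle level. The score and these measures share the well's total as denominator or depth, so that these are descriptions. The part of depth in the results was not tested as a cause. Wells were also ranked within 4 strata of depth and within 2 strata of cell cycle level. Values of these rankings are given below for a part of the lists. Outside the score genes, ranking within the 4 strata of depth called 561 genes higher and 566 lower of 4988 tested. Ranking within the 2 strata of cell cycle level called 452 higher and 462 lower of 4627 tested. The sums held 327758 and 201878 counts in hypoxia-high and 520564 and 283509 counts in hypoxia-low wells, and 1615681 to 2233241 in the BME sums. All plates used the same 384 well barcodes, so that shared barcodes say nothing about shared cells.

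Outside the 5 score genes, 5016 genes were tested in Collagen I, of which 712 (14.2%) were higher and 732 (14.6%) lower in hypoxia-high wells, 1444 (28.8%) in all, and 1923 had an unadjusted p under 0.05. The median log2 fold change of all genes was 0.0014. Leaving out replicate 1 or replicate 3 gave fewer calls, and not all of them were among the 1444. Those fits take the spread from the plates of both matrices. DESeq2 called 184 genes, 119 higher and 65 lower, all of which were also called by edgeR in the same direction, and gave no adjusted p for 876 genes. The Collagen I fit rests on 1 residual degree of freedom, with the spread taken wholly from all genes together. No gene's own spread between the plates thus entered its p-value in this fit.

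Targets of HIF outside glycolysis formed the list with the most members called higher. Of the 47 members of this list besides the score genes, 35 passed the filter on low counts, and 30 of these were higher and 1 lower in hypoxia-high wells, with a median log2 fold change of 1.64 (all genes 0.0014). The list was put together with earlier results of these data known and includes Selenbp1, a selenium-binding protein whose place among HIF targets is less certain. DESeq2 called 20 higher, ranking within 4 strata of depth 28, ranking within 2 strata of cell cycle level 29, and the fit without replicate 1 called 23.

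Of the 5016 genes tested outside the score Selenbp1 had the largest increase, with 278 and 317 CPM in hypoxia-high sums, against 19.2 and 17.6 CPM in hypoxia-low sums (log2 fold change 3.97 ± 0.34, adjusted p = 1.8e-29). The mitophagy receptors Bnip3 and Bnip3l, which remove mitochondria in low oxygen, were both higher. Bnip3 had 1096 and 917 CPM in hypoxia-high sums, against 202 and 236 CPM in hypoxia-low sums (log2 fold change 2.25 ± 0.17, adjusted p = 2.9e-38). Bnip3l had 940.5 and 907 CPM in hypoxia-high and 321 and 279 CPM in hypoxia-low sums (log2 fold change 1.64 ± 0.16, adjusted p = 4.0e-22). Car9, a carbonic anhydrase at the cell surface that regulates pH, had 1057 and 1085 CPM in hypoxia-high and 336 and 293 CPM in hypoxia-low sums (log2 fold change 1.78 ± 0.16, adjusted p = 9.3e-28). The related Car12 had 149.5 and 173 CPM in hypoxia-high and 108 and 59.96 CPM in hypoxia-low sums (log2 fold change 0.89 ± 0.29, adjusted p = 0.01). Ddit4, an inhibitor of mTORC1, had 1378 and 1066 CPM in hypoxia-high and 383 and 289 CPM in hypoxia-low sums (log2 fold change 1.89 ± 0.15, adjusted p = 8.6e-33). For Bnip3, Car9 and Ddit4 both hypoxia-high values lay far above both hypoxia-low values, and for Car12 the gap was small beside the spread of the hypoxia-low values.

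The called members of the list included 4 collagen hydroxylases. P4ha1, a catalytic subunit of collagen prolyl 4-hydroxylase, had 479 and 475 CPM in hypoxia-high and 117 and 95.2 CPM in hypoxia-low sums (log2 fold change 2.16 ± 0.21, adjusted p = 1.2e-22). P4ha2, another, had 180.0 and 218 CPM in hypoxia-high and 24.97 and 38.8 CPM in hypoxia-low sums (log2 fold change 2.70 ± 0.34, adjusted p = 9.7e-14). Plod1, which hydroxylates lysines of collagen, had 504 and 485 CPM in hypoxia-high and 138 and 84.6 CPM in hypoxia-low sums (log2 fold change 2.12 ± 0.21, adjusted p = 1.6e-22). The related Plod2 had 430.3 and 495 CPM in hypoxia-high and 113 and 98.8 CPM in hypoxia-low sums (log2 fold change 2.11 ± 0.21, adjusted p = 2.9e-21). Lox, which crosslinks collagen, did not pass the filter on low counts. Of the glycogen genes on the list, Gbe1, the branching enzyme, had 348 and 426 CPM in hypoxia-high and 51.9 and 59.96 CPM in hypoxia-low sums (log2 fold change 2.80 ± 0.25, adjusted p = 3.3e-26). Gys1, glycogen synthase, had 327 and 243 CPM in hypoxia-high and 90.3 and 70.5 CPM in hypoxia-low sums (log2 fold change 1.84 ± 0.25, adjusted p = 1.3e-11). For these 6 genes, chosen among those called higher, both hypoxia-high values lay above both hypoxia-low values. This was the case for 29.1% of all genes tested, and both hypoxia-high values lay below both hypoxia-low values for 32.7%.

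Among the other members called higher were the histone demethylase Kdm3a (log2 fold change 2.43 ± 0.37, adjusted p = 1.4e-09), the Myc antagonist Mxi1 (log2 fold change 1.87 ± 0.29, adjusted p = 3.9e-09) and the repressor Bhlhe41 (log2 fold change 1.46 ± 0.20, adjusted p = 4.2e-12). The mitochondrial proteins Fam162a (log2 fold change 1.31 ± 0.15, adjusted p = 6.4e-17) and Higd1a (log2 fold change 1.37 ± 0.18, adjusted p = 7.7e-13) were also higher. The cytokine Mif had the smallest change of those called higher (log2 fold change 0.40 ± 0.12, adjusted p = 0.0056). Ankrd37 and Ppp1r3c rest on few counts. Ankrd37 had 51.9 and 39.6 CPM in hypoxia-high and 3.84 and 17.6 CPM in hypoxia-low sums. Ppp1r3c had 33.6 and 34.7 CPM in hypoxia-high and 3.84 and 14.1 CPM in hypoxia-low sums. Pdk3, a pyruvate dehydrogenase kinase, was the 1 member called lower (log2 fold change -1.39 ± 0.56, adjusted p = 0.046), at 18.3 and 14.9 CPM in hypoxia-high and 48.02 and 42.3 CPM in hypoxia-low sums. The 4 tested members that were not called were Kdm4b, Hilpda, Tfrc and Pdgfb, and 12 members, among them Adm, Hmox1 and Angptl4, did not pass the filter on low counts.

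The HIF pathway itself was also represented. Egln1, the prolyl hydroxylase that is both a regulator and a target of HIF, had 494 and 421 CPM in hypoxia-high sums, against 140.2 and 102 CPM in hypoxia-low sums (log2 fold change 1.92 ± 0.21, adjusted p = 1.7e-18). Hif1a had 262 and 213 CPM in hypoxia-high and 109 and 74.1 CPM in hypoxia-low sums (log2 fold change 1.37 ± 0.26, adjusted p = 1.8e-06). Epas1 had 128 and 198 CPM in hypoxia-high and 78.8 and 67.01 CPM in hypoxia-low sums (log2 fold change 1.09 ± 0.30, adjusted p = 0.0018). Vhl had 85.4 and 64.4 CPM in hypoxia-high and 36.5 and 24.7 CPM in hypoxia-low sums (log2 fold change 1.28 ± 0.40, adjusted p = 0.0079). Of 9 regulators on the list, 5 were tested, 4 were called higher and Egln2 was not called. Only the call of Egln1 held with DESeq2, where Hif1a had an adjusted p of 0.098, Epas1 of 0.4 and Vhl of 0.57. Without replicate 1, 3 of the 4 were called, and without replicate 3, 2. Transcripts say nothing here of the HIF proteins, which are controlled by degradation.

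The promoters of these genes were searched for the core of the hypoxia response element, as ACGTG and GCGTG on both strands within 250 bases before each RefSeq start (GRCm38.p6). Where CACGTG, the palindrome also known as an E-box, occurs, it counts as a match to ACGTG on each strand. Of the 46 members of the HIF target and glycolysis lists that were called higher, 43 had a promoter in RefSeq, and 26 of these (60.5%) held ACGTG and 35 (81.4%) either core. Over the 3855 tested genes with a promoter the shares were 27.4% and 67.1%, and over all 27025 genes 18.5% and 41.5%. These are counts of letters and not of bound sites. The genes came from lists of HIF targets and glycolysis and were not compared with uncalled list members. The shares thus describe the lists and are no test of the contrast. The 5 sequences run 5' to 3' with each core on either strand in capitals, and are the 120 bases before the start of a score gene and of 4 members called higher. In 12 genes of these sets this window held a core and no annotated exon on that strand, and the 5 shown were picked from these as examples after the matches were seen.
Ero1l (chr14:45318573-45318692, minus strand): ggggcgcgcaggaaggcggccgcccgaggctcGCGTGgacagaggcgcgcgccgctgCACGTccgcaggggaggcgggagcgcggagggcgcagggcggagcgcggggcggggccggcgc
P4ha2 (chr11:54100804-54100923, plus strand): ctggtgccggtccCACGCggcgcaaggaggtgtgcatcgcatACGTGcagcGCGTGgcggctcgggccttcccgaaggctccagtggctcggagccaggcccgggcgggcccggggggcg
Ldha (chr7:46845684-46845803, plus strand): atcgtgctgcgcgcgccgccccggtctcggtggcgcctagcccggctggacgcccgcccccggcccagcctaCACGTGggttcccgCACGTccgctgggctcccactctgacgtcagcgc
Hk2 (chr6:82774455-82774574, minus strand): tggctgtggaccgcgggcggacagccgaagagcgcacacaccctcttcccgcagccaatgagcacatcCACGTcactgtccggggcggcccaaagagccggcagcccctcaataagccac
Pgam1 (chr19:41911751-41911870, plus strand): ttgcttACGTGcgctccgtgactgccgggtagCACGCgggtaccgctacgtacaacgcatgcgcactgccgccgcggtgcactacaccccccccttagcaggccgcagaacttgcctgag

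Genes of glycolysis were mostly higher. Of 25 members of the list 19 were tested, and 16 were higher and 0 lower, with a median log2 fold change of 1.18. Slc2a1, the glucose transporter GLUT1, had 583 and 560.0 CPM in hypoxia-high sums, against 108 and 113 CPM in hypoxia-low sums (log2 fold change 2.40 ± 0.20, adjusted p = 1.2e-29). Pfkfb3, whose product activates phosphofructokinase, had 149.5 and 124 CPM in hypoxia-high and 13.4 and 14.1 CPM in hypoxia-low sums and the largest change of the list (log2 fold change 3.34 ± 0.43, adjusted p = 7.3e-13). Of the enzymes, Hk2, a hexokinase, had 329.6 and 253 CPM in hypoxia-high and 106 and 113 CPM in hypoxia-low sums (log2 fold change 1.47 ± 0.23, adjusted p = 1.3e-08). Gpi1, the isomerase, had 1403 and 1497 CPM in hypoxia-high and 532 and 438 CPM in hypoxia-low sums (log2 fold change 1.59 ± 0.14, adjusted p = 1.4e-27). Pfkp, a phosphofructokinase, had 509.7 and 446 CPM in hypoxia-high and 167 and 159 CPM in hypoxia-low sums (log2 fold change 1.58 ± 0.20, adjusted p = 5.1e-14). Aldoa, aldolase, had 2687 and 2182 CPM in hypoxia-high and 1204 and 992 CPM in hypoxia-low sums (log2 fold change 1.18 ± 0.12, adjusted p = 7.0e-20). Gapdh had 2012 and 1656 CPM in hypoxia-high and 773 and 684 CPM in hypoxia-low sums (log2 fold change 1.36 ± 0.13, adjusted p = 1.1e-23). Pgk1, an ATP-yielding enzyme, had 3835 and 3171 CPM in hypoxia-high and 1525 and 1179 CPM in hypoxia-low sums (log2 fold change 1.40 ± 0.12, adjusted p = 4.5e-30). Smaller log2 fold changes were called for Pgam1 (0.92 ± 0.12), Pkm (0.90 ± 0.11) and Ldha (0.67 ± 0.12), and likewise for the isoforms Hk1 (0.98 ± 0.23) and Aldoc (0.78 ± 0.17). The smallest called change of the list was that of triosephosphate isomerase Tpi1 (0.55 ± 0.13). Ldha, the subunit of lactate dehydrogenase that favours lactate, had 2355 and 2237 CPM in hypoxia-high and 1665 and 1289 CPM in hypoxia-low sums. Pdk1, a pyruvate dehydrogenase kinase, had 226 and 208 CPM in hypoxia-high and 76.8 and 74.1 CPM in hypoxia-low sums (log2 fold change 1.55 ± 0.27, adjusted p = 4.1e-07). Pfkl, Ldhb and the lactate transporter Slc16a1 were tested and not called. DESeq2 called 10 of the 16, ranking within 4 strata of depth all 16, ranking within 2 strata of cell cycle level 15 and the fit without replicate 1 called 14. Gapdh and other genes of this list have many processed pseudogenes, and how reads shared with these were counted is not given in the sources used here.

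**Figure D2:**
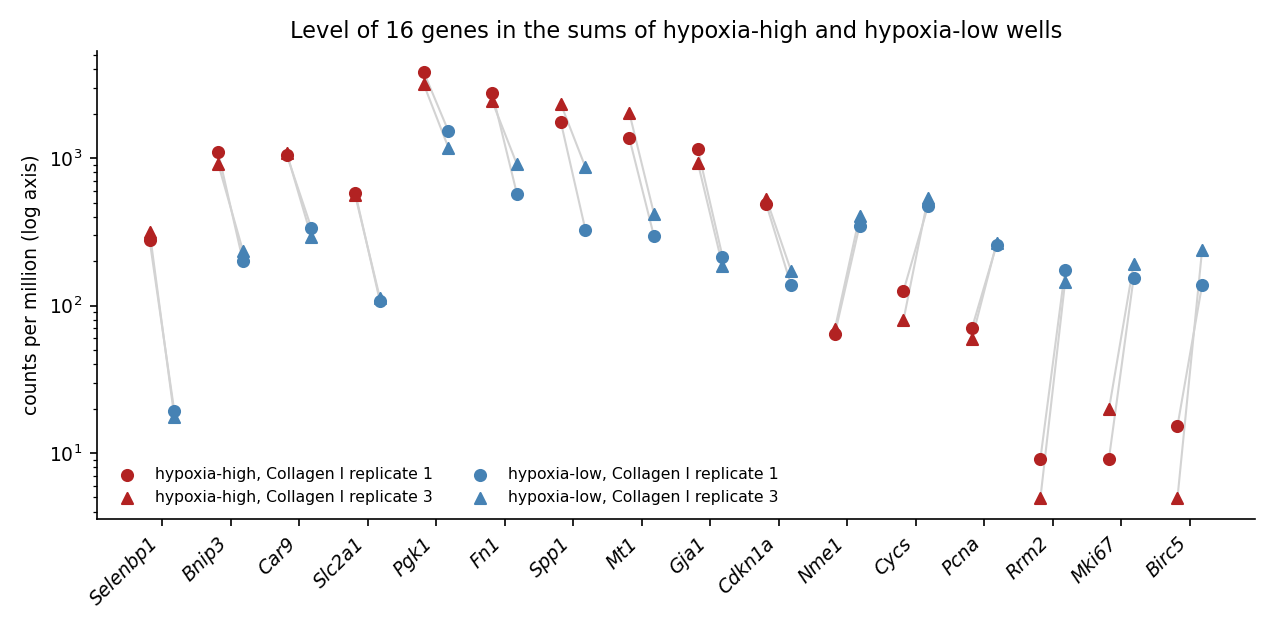
Level of 16 genes in the sums of hypoxia-high wells (red) and hypoxia-low wells (blue), in CPM on a log axis, with circles for Collagen I replicate 1 and triangles for replicate 3, and grey lines joining the sums of 1 plate. The 16 genes were picked among those called, and the groups overlapped for none of them, against 29.1% of all genes tested with both hypoxia-high sums above and 32.7% with both below the hypoxia-low sums. Selenbp1 had 278 and 317 CPM in hypoxia-high and 19.2 and 17.6 CPM in hypoxia-low sums, and Mki67 had 9.15 and 19.8 CPM in hypoxia-high and 154 and 190.5 CPM in hypoxia-low sums.

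Many of the genes above also led when single wells were compared with the score within each plate. Over 2754 genes found in at least 20% of wells, ranked by the lower of the 2 Spearman's rho values, the genes most like the score were Pgk1 (0.56 in 232 wells of replicate 1 and 0.56 in 213 wells of replicate 3), Bsg (0.58 and 0.55), 2610528A11Rik (0.62 and 0.50), Gpi1 (0.48 and 0.55), Car9 (0.48 and 0.46), Bnip3l (0.50 and 0.46), Gbe1 (0.48 and 0.45), Ddit4 (0.52 and 0.45), Pkm (0.46 and 0.44) and Selenbp1 (0.44 and 0.50). Bsg encodes basigin, the partner of lactate transporters, and 2610528A11Rik carries the synonym Gpr15l in RefSeq. In the sums, Bsg had 4043 and 4072 CPM in hypoxia-high sums, against 1498 and 1513 CPM in hypoxia-low sums (log2 fold change 1.46 ± 0.12, adjusted p = 1.8e-33). 2610528A11Rik had 1757 and 1557 CPM in hypoxia-high and 286 and 257 CPM in hypoxia-low sums (log2 fold change 2.63 ± 0.15, adjusted p = 2.7e-65). The genes most opposite to the score were cytochrome c (Cycs, -0.49 and -0.53), mtCo3 (-0.53 and -0.47) and Nme1 (-0.47 and -0.46). These values share each well's total as denominator and are given without a test.

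Over 4 equal groups of the whole ranking, from the lowest to the highest score, the levels formed a gradient rather than a step for a part of the genes. Slc2a1 had 108, 190, 329.6 and 583 CPM in replicate 1 and 113, 196, 328 and 560.0 CPM in replicate 3 as the score rose, and Car9 was likewise ordered in both plates. Nme1 and Cycs fell with each group in both plates. Fn1, in turn, differed mainly between the lowest group and the other 3, with 573 CPM in the lowest and 1931 to 2765 CPM above it in replicate 1, and 908 CPM against 2095 to 2428 CPM in replicate 3. Of the 712 genes called higher, 51.7% in replicate 1 and 37.8% in replicate 3 were ordered over all 4 groups, and of the 732 genes called lower 47.3% and 36.2%. The outer groups chose these genes, so that only the place of the 2 middle groups was free. Both middle groups lay between the outer ones for 70.9% and 56.9% of the genes called higher and 70.5% and 67.4% of those called lower.

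**Figure D3:**
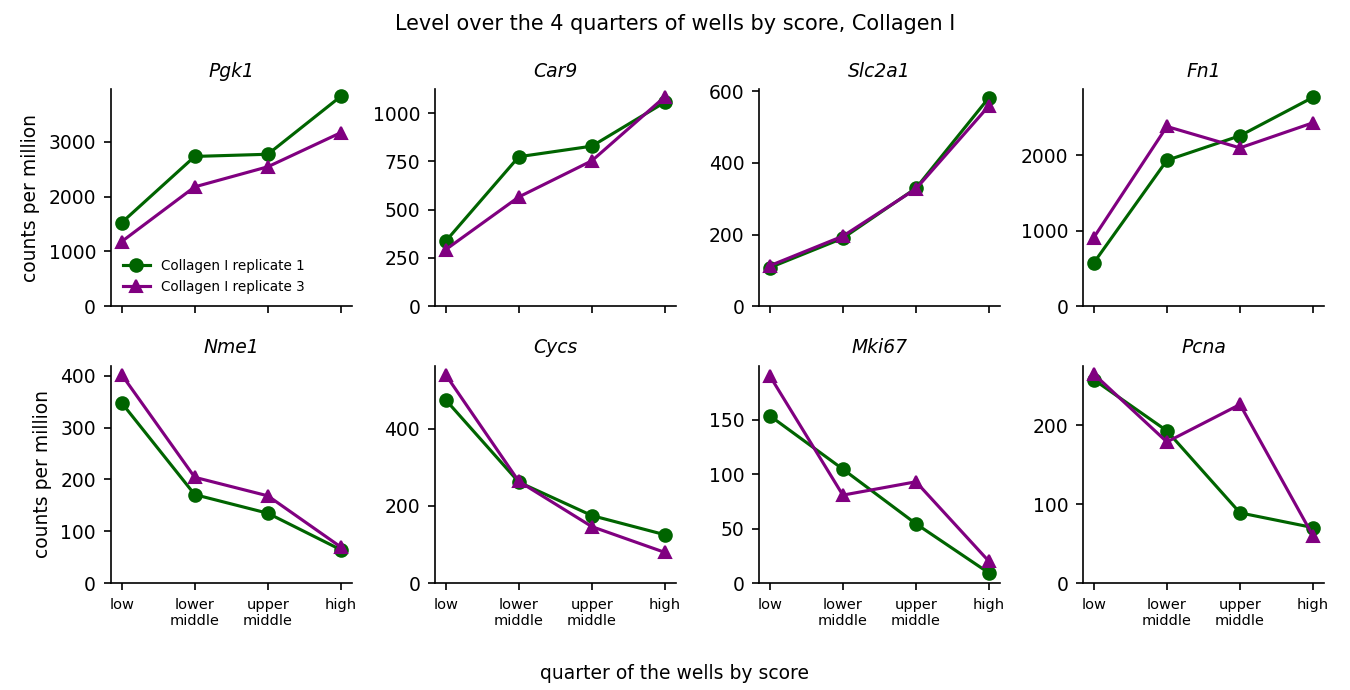
Level of 8 genes in the sums of the 4 equal groups of wells by score (x axis, lowest to highest score), in CPM (y axis, from 0), for Collagen I replicate 1 (green circles) and replicate 3 (purple triangles). Slc2a1 and Car9 rose and Nme1 and Cycs fell with every group in both plates, and Fn1 was low mainly in the lowest group.

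Genes of the cell cycle were lower in hypoxia-high wells as a group. Of 33 S phase genes 19 were tested, 18 were lower and 0 higher, with a median log2 fold change of -2.26, and of 44 G2/M genes 30 were tested, 28 were lower and 0 higher, with a median of -2.42. Of the tested members 2 and 1 were at 0 in both hypoxia-high sums, and with these at the bound set by 3 counts over the group the medians were the same. DESeq2 called 6 of the 18 S phase and 11 of the 28 G2/M genes. Ranked within 4 strata of depth, 18 of 19 tested S phase genes were lower, with a median of -1.96. Of 29 tested G2/M genes 16 were lower in that ranking, with a median of only -1.15. Rrm2, a subunit of ribonucleotide reductase, had 9.15 and 4.95 CPM in hypoxia-high sums, against 175 and 145 CPM in hypoxia-low sums (log2 fold change -4.35 ± 0.50, adjusted p = 2.5e-16). Pcna, the sliding clamp of DNA polymerase, had 70.2 and 59.4 CPM in hypoxia-high and 258 and 265 CPM in hypoxia-low sums (log2 fold change -1.96 ± 0.28, adjusted p = 7.4e-11). The helicase subunit Mcm7 had 21.4 and 24.8 CPM in hypoxia-high and 194 and 113 CPM in hypoxia-low sums (log2 fold change -2.79 ± 0.40, adjusted p = 1.1e-10). Mki67, the proliferation marker Ki-67, had 9.15 and 19.8 CPM in hypoxia-high and 154 and 190.5 CPM in hypoxia-low sums (log2 fold change -3.60 ± 0.44, adjusted p = 1.5e-14). Birc5, or survivin, had 15.3 and 4.95 CPM in hypoxia-high and 138 and 239.9 CPM in hypoxia-low sums (log2 fold change -3.89 ± 0.44, adjusted p = 2.4e-16). Ccnb1, cyclin B1, had 6.10 and 4.95 CPM in hypoxia-high and 125 and 98.8 CPM in hypoxia-low sums (log2 fold change -4.24 ± 0.58, adjusted p = 1.4e-11). The hypoxia-high values of Ccnb1, Birc5 and Rrm2 correspond to 1 to 5 counts in a sum, so that the size of these changes is loosely set.

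The cell cycle level of the wells moved with the score, as given above. The strata of cell cycle level were made from the summed S phase and G2/M genes. This narrows the contrast of these genes and leaves few of their counts in the lower stratum, so that their values are a description. When wells were ranked within 2 strata of cell cycle level, 12 of 15 tested S phase genes were called lower, with a median of -1.74. Of 29 tested G2/M genes only 8 were called lower, with a median of -0.55. Ccnb1 (-0.69), Cdc20 (-0.62), Top2a (-0.65) and Ube2c (-0.31) were no longer called, with adjusted p from 0.14 to 0.44. In the stratum of lower cell cycle level alone, no S phase or G2/M gene passed the filter on low counts, and 89 of 2271 genes were called, 52 higher and 37 lower. There the HIF targets still had 12 of 28 tested members higher and 0 lower, with a median log2 fold change of 1.01, and glycolysis 7 of 17, with a median of 0.45. Of 7 tested G1 cyclins and CDK inhibitors 1 was higher and 3 were lower, with 0 lower without replicate 3. Cdkn1a, the CDK inhibitor p21, was higher in hypoxia-high wells, with 485 and 530.1 CPM in hypoxia-high sums, against 138 and 173 CPM in hypoxia-low sums (log2 fold change 1.75 ± 0.20, adjusted p = 4.7e-17). Cyclin D1 (Ccnd1) had 458 and 228 CPM in hypoxia-high and 515 and 614 CPM in hypoxia-low sums (log2 fold change -0.65 ± 0.17, adjusted p = 0.0014) and a hypoxia-high range that came close to the hypoxia-low range.

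Genes of growth and of mitochondrial respiration were also lower. Of 32 tested Myc targets and ribosome biogenesis genes 25 were lower and 0 higher, with a median log2 fold change of -1.53, and DESeq2 called 8 of the 25. Within 2 strata of cell cycle level 22 were called lower and 1 higher. In the stratum of lower cell cycle level alone, 3 of 12 tested members were called lower and 0 higher, with a median of -0.57. Nme1, a nucleoside diphosphate kinase, had 64.1 and 69.3 CPM in hypoxia-high sums, against 348 and 402 CPM in hypoxia-low sums (log2 fold change -2.45 ± 0.25, adjusted p = 5.8e-20). Ran, the GTPase of nuclear transport, had 198 and 104 CPM in hypoxia-high and 586 and 607 CPM in hypoxia-low sums (log2 fold change -1.90 ± 0.20, adjusted p = 1.1e-19). The mitochondrial chaperone Hspd1 had 82.4 and 64.4 CPM in hypoxia-high and 352 and 318 CPM in hypoxia-low sums (log2 fold change -2.14 ± 0.25, adjusted p = 1.9e-15). The polyamine enzyme Srm had 12.2 and 29.7 CPM in hypoxia-high and 148 and 119.95 CPM in hypoxia-low sums (log2 fold change -2.80 ± 0.42, adjusted p = 1.8e-09). Nop56, a protein of the snoRNA machinery, had 42.7 and 54.5 CPM in hypoxia-high and 219 and 247 CPM in hypoxia-low sums (log2 fold change -2.25 ± 0.31, adjusted p = 1.4e-11). Ribosomal proteins themselves had a median of 0.0065, with 2 of 69 higher and 6 lower, which is a smaller share than the 28.8% of all genes. Without replicate 3 of Collagen I 7 were higher and 4 lower.

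Of 49 nuclear genes of oxidative phosphorylation, all tested, 23 were lower and 0 higher, with a median of -0.60, and 45 had the lower value in hypoxia-high wells in both plates, against 38.1% of all genes tested. Without replicate 1 the calls numbered 14. Cycs, cytochrome c, had 125 and 79.2 CPM in hypoxia-high sums, against 475 and 539.8 CPM in hypoxia-low sums (log2 fold change -2.22 ± 0.22, adjusted p = 4.4e-22). Atp5g1, a subunit of ATP synthase, had 140.3 and 188 CPM in hypoxia-high and 354 and 441 CPM in hypoxia-low sums (log2 fold change -1.26 ± 0.21, adjusted p = 3.8e-08). DESeq2 called 2 of the 23. Of the 13 proteins encoded in the mitochondrion 11 were lower, with a median of -0.83, and DESeq2 called 7. The subunit of complex I mtNd3 had 965 and 1373 CPM in hypoxia-high and 3332 and 3804 CPM in hypoxia-low sums (log2 fold change -1.60 ± 0.12, adjusted p = 2.0e-37). The cytochrome oxidase subunit mtCo3 had 1428 and 1780.4 CPM in hypoxia-high and 4145 and 4319 CPM in hypoxia-low sums (log2 fold change -1.38 ± 0.12, adjusted p = 4.7e-30). Summed over the 13 genes, these transcripts took 34374 and 44511 CPM in hypoxia-high sums and 67086 and 73299 CPM in hypoxia-low sums. All 11 were also called lower when wells were ranked within 4 strata of depth and within 2 strata of cell cycle level. In the stratum of lower cell cycle level alone, 3 of 12 tested mitochondrially encoded genes were called lower, with a median of -0.43. There 1 of 40 tested nuclear genes of oxidative phosphorylation was called lower, with a median of -0.52.

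**Figure D4:**
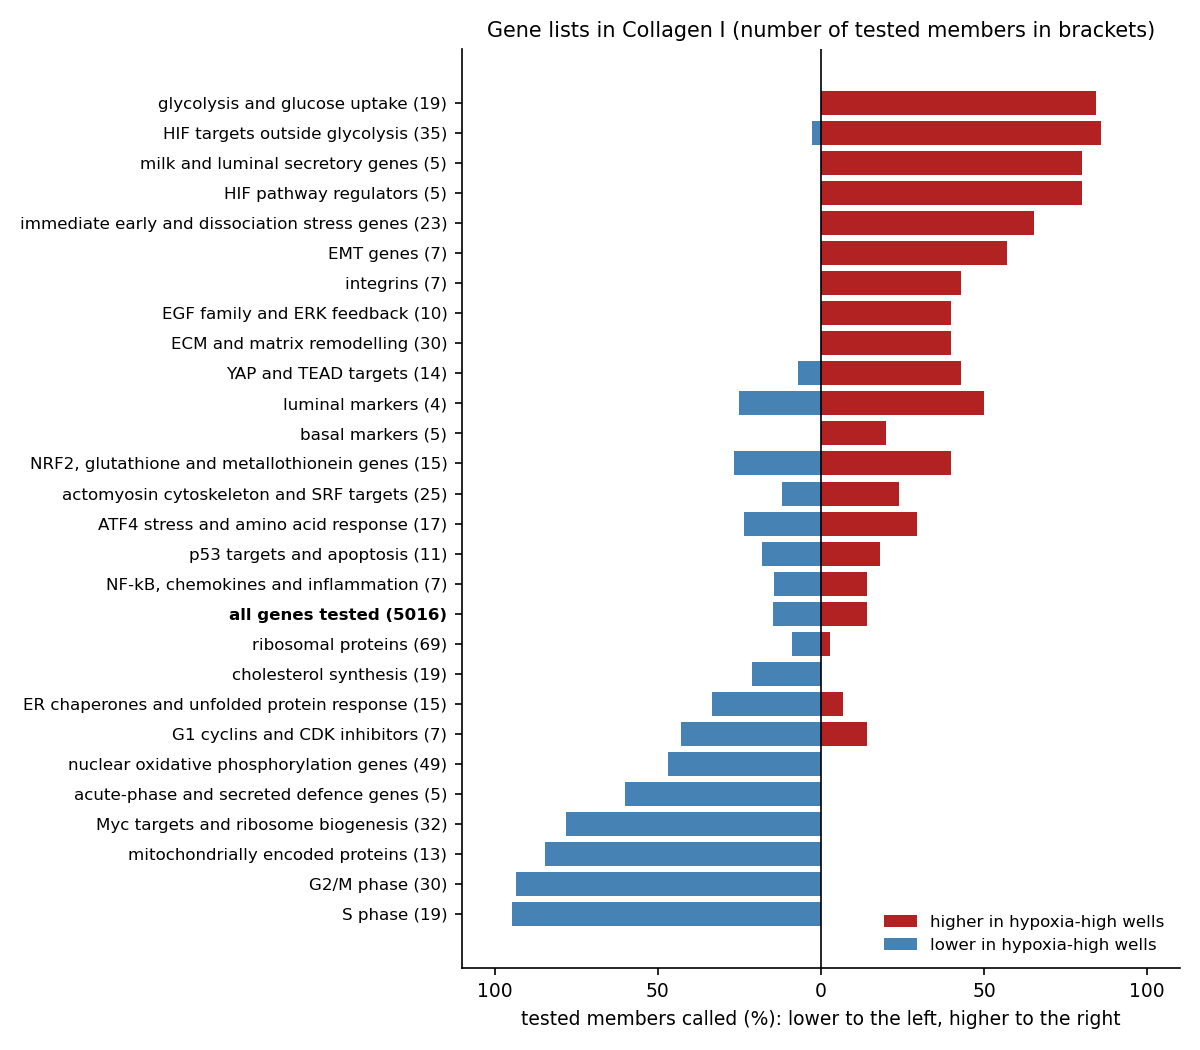
Share of the tested members of each gene list (y axis, number tested in brackets) that were called higher (red, to the right) or lower (blue, to the left) in hypoxia-high wells of Collagen I, in percent of the tested members (x axis). Lists with fewer than 4 tested members are left out. Over all genes tested 14.2% were higher and 14.6% lower, against 30 of 35 HIF targets higher and 18 of 19 S phase genes lower.

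Genes of the extracellular matrix were partly higher. Of 30 tested members of the list 12 were higher and 0 lower, but the median was only 0.50 and 4 of the 12 were the collagen hydroxylases described above. Ranked within 2 strata of cell cycle level, 11 of 31 tested members were higher and 2 lower. In the stratum of lower cell cycle level alone, 4 of 26 were higher and 2 lower, with a median of -0.097. Fn1, fibronectin, had 2765 and 2428 CPM in hypoxia-high sums, against 573 and 908 CPM in hypoxia-low sums (log2 fold change 1.89 ± 0.13, adjusted p = 1.2e-46). Spp1, osteopontin, had 1764 and 2337 CPM in hypoxia-high and 326 and 868 CPM in hypoxia-low sums (log2 fold change 1.95 ± 0.13, adjusted p = 5.7e-46). Others such as Sparc, Mmp14, Thbs1 and the basement membrane collagens Col4a1 and Col4a2 were tested and not called. Snai1, a transcription factor of epithelial-mesenchymal transition, had 281 and 158 CPM in hypoxia-high and 38.4 and 45.9 CPM in hypoxia-low sums (log2 fold change 2.48 ± 0.31, adjusted p = 1.0e-13). Vim, vimentin, had 516 and 367 CPM in hypoxia-high and 199.8 and 251 CPM in hypoxia-low sums (log2 fold change 1.04 ± 0.19, adjusted p = 7.6e-07). The same list of 7 tested EMT genes had 4 higher, 1 of which was the epithelial Epcam (log2 fold change 0.61 ± 0.16, adjusted p = 9.4e-04), while Cdh1, Cdh2 and Snai2 were not called. Without replicate 1, 2 of the 4 were called. In the stratum of lower cell cycle level alone, 0 of 6 tested EMT genes were called, with a median of -0.029. Of the 3 integrins called higher out of 7, Itga3 had 657 and 609.6 CPM in hypoxia-high and 332 and 303 CPM in hypoxia-low sums (log2 fold change 1.02 ± 0.17, adjusted p = 6.2e-08). Without replicate 1 and with DESeq2 1 integrin was called. Of 14 tested YAP and TEAD targets 6 were higher and 1 lower, with 1 higher without replicate 1. Among them were the ectonucleotidase Nt5e (log2 fold change 2.65 ± 0.47, adjusted p = 4.5e-07) and the activin subunit Inhba (log2 fold change 1.70 ± 0.35, adjusted p = 1.6e-05). Ctgf was not called. Ranked within 2 strata of cell cycle level, 4 of 14 tested YAP and TEAD targets were higher and 2 lower, with a median of 0.061. In the lower stratum alone 0 of 9 were higher and 1 lower, with a median of -0.39.

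Several secreted and stress-related genes were higher in hypoxia-high wells. The metallothionein Mt1, which binds zinc, had 1369 and 2031 CPM in hypoxia-high sums, against 296 and 420.0 CPM in hypoxia-low sums (log2 fold change 2.27 ± 0.14, adjusted p = 4.9e-53). Of 5 tested milk and luminal secretory genes 4 were higher, with a median of 1.27. The casein Csn3 had 1007 and 1397 CPM in hypoxia-high and 383 and 643 CPM in hypoxia-low sums (log2 fold change 1.29 ± 0.14, adjusted p = 2.0e-17). Mgp, matrix Gla protein, had 918 and 1007 CPM in hypoxia-high and 348 and 480.4 CPM in hypoxia-low sums (log2 fold change 1.27 ± 0.15, adjusted p = 6.0e-15). All 4 were also called by DESeq2. Ranked within 2 strata of cell cycle level, 4 of 5 were higher. In the stratum of lower cell cycle level alone 0 of 5 were called, with a median of 0.24. Of 23 tested immediate early and dissociation stress genes 15 were higher and 0 lower, with a median of 0.77, which DESeq2 reduced to 3 calls, leaving out replicate 1 to 9 and leaving out replicate 3 to 10. Ier3 had 1486 and 1905 CPM in hypoxia-high and 456 and 780.2 CPM in hypoxia-low sums (log2 fold change 1.53 ± 0.13, adjusted p = 3.7e-28). Fos, whose plates differed, had 385 and 699 CPM in hypoxia-high and 177 and 325 CPM in hypoxia-low sums (log2 fold change 1.14 ± 0.18, adjusted p = 1.1e-08). Of these transcripts it cannot be told whether they were made in the organoid or during dissociation. The galectin Lgals3 had 568 and 480.5 CPM in hypoxia-high and 57.6 and 130.5 CPM in hypoxia-low sums (log2 fold change 2.65 ± 0.21, adjusted p = 5.1e-32). Arrdc3, an arrestin-like protein, had 207 and 154 CPM in hypoxia-high and 19.2 and 14.1 CPM in hypoxia-low sums (log2 fold change 3.43 ± 0.38, adjusted p = 6.4e-17). The EGF receptor ligand Tgfa had 217 and 74.3 CPM in hypoxia-high and 32.7 and 24.7 CPM in hypoxia-low sums (log2 fold change 2.42 ± 0.37, adjusted p = 1.5e-09).

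The stress pathways that act through ATF4 and the endoplasmic reticulum did not move in 1 direction. Of 17 tested ATF4 genes 5 were higher and 4 lower. Nupr1, a stress-induced chromatin protein, had 128 and 129 CPM in hypoxia-high and 7.68 and 35.3 CPM in hypoxia-low sums (log2 fold change 2.85 ± 0.41, adjusted p = 2.6e-10). The pseudokinase Trib3 had 82.4 and 114 CPM in hypoxia-high and 17.3 and 21.2 CPM in hypoxia-low sums (log2 fold change 2.33 ± 0.43, adjusted p = 1.0e-06). Phgdh, the entry enzyme of serine synthesis, had 12.2 and 0 CPM in hypoxia-high and 138 and 102 CPM in hypoxia-low sums (log2 fold change -3.98 ± 0.54, adjusted p = 7.3e-12). Of 15 tested genes of endoplasmic reticulum chaperones 1 was higher and 5 were lower. The 1 higher was P4hb, protein disulfide isomerase and also a subunit of collagen prolyl 4-hydroxylase, with 1437 and 1264 CPM in hypoxia-high and 782 and 642 CPM in hypoxia-low sums (log2 fold change 0.95 ± 0.13, adjusted p = 7.4e-11). Manf had 177 and 129 CPM in hypoxia-high and 346 and 335 CPM in hypoxia-low sums (log2 fold change -1.10 ± 0.21, adjusted p = 4.7e-06). Of 19 tested genes of cholesterol synthesis 4 were lower and 0 higher. Of 5 tested acute-phase and defence genes 3 were lower, with haptoglobin (Hp) at 45.8 and 29.7 CPM in hypoxia-high and 140.3 and 201 CPM in hypoxia-low sums (log2 fold change -2.02 ± 0.34, adjusted p = 1.2e-07). Over all genes tested 14.2% were higher and 14.6% lower, and the p53 and NF-kB lists lay near these shares. The NRF2 list had 6 higher and 4 lower of 15, the p53 list 2 and 2 of 11, the list of NF-kB and chemokines 1 and 1 of 7, the actomyosin list 6 and 3 of 25, and the EGF family list 4 and 0 of 10. Leaving out 1 plate moved these counts. Without replicate 1, 3 ATF4 genes, 3 NRF2 genes, 2 genes of the EGF family, 1 p53 gene and 0 actomyosin genes were higher, and 1 chaperone, 1 gene of cholesterol synthesis, 2 NRF2 genes and 1 p53 gene were lower. Without replicate 3, 10 actomyosin genes were higher and 1 acute-phase gene was lower. The 2 calls of the NF-kB list fell to 0 without replicate 1 and to 1 without replicate 3. DESeq2 called none of the cholesterol and actomyosin genes.

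The sums of hypoxia-high and of hypoxia-low wells both held transcripts of epithelial keratins. By the basal keratins Krt5, Krt14 and Krt17 (at least 10 per 10000 counts in sum), 10 and 13 hypoxia-high wells were basal, 17.2% and 24.5%, against 9 and 14 hypoxia-low wells, 15.5% and 26.4%. Of 5 tested basal markers only Krt14 was called, at 195 and 416 CPM in hypoxia-high and 159 and 222 CPM in hypoxia-low sums (log2 fold change 0.63 ± 0.21, adjusted p = 0.014), a call that was lost with DESeq2. Of 4 tested luminal markers 2 were higher and 1 lower. Krt8 had 1719 and 1076 CPM in hypoxia-high and 648 and 893 CPM in hypoxia-low sums (log2 fold change 0.91 ± 0.13, adjusted p = 3.5e-10). Krt18 had 1100.0 and 828 CPM in hypoxia-high and 380.4 and 505 CPM in hypoxia-low sums (log2 fold change 1.19 ± 0.15, adjusted p = 2.8e-13). Neither was called without replicate 1. The 1 lower, Cd14, had 324 and 411 CPM in hypoxia-high and 598 and 745 CPM in hypoxia-low sums (log2 fold change -0.84 ± 0.17, adjusted p = 7.4e-06). Ranking basal and other wells separately called 30 HIF targets and 16 glycolysis genes higher, as many as before. Over all genes, 716 of 4962 tested were higher in that ranking. Of the markers of other cell types, 6 of 13 immune, 5 of 6 endothelial and 3 of 5 adipocyte genes could be looked up, the others were not analysed here, and none of these passed the filter on low counts, and the summed level of each list ranged from 0 to 12.2 CPM in hypoxia-high sums and from 0 to 7.05 CPM in hypoxia-low sums. Lyz2, Cd74 and Cdh5 were at 0 in all 4 sums. Fibroblast markers had 171 and 287 CPM in hypoxia-high and 90.3 and 293 CPM in hypoxia-low sums, 2 of 8 were tested and 0 called. Lum, Pdgfrb and Fap were at 0. Col1a1 had 137 and 99.1 CPM in hypoxia-high and 65.3 and 84.6 CPM in hypoxia-low sums. Col1a2 was at 0 in replicate 1 and had 139 (hypoxia-high) and 102 CPM (hypoxia-low) in replicate 3. Dcn had 3.05 and 19.8 CPM in hypoxia-high and 3.84 and 77.6 CPM in hypoxia-low sums. Pdgfra and Col3a1 ranged from 0 to 30.5 CPM. The source of these transcripts was not tested.

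The same selection was made in the 3 BME plates, to ask which of these contrasts differed between the matrices. In BME 9692 genes were tested and 826 (8.52%) were higher and 768 (7.92%) lower in hypoxia-high wells. The difference of the contrast, Collagen I minus BME, was called for 104 of 10440 genes in the higher direction (0.996%) and for 225 in the lower (2.16%), 329 (3.15%) in all. When the sums were scaled by library size only, these were 67 and 404, and the calls in BME 1115 and 455. Each Collagen I plate was sequenced apart from the BME plates and to a lower depth, so that effects of matrix and of sequencing run cannot be told apart. The 2 selections also lie at different levels of the score. The differences rest on 2 plates against 3, and without Collagen I replicate 1, Collagen I replicate 3 or BME replicate 1 the calls numbered 85, 206 and 100, and without BME replicate 3 513.

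HIF targets and glycolysis were higher in both matrices. In BME 33 of 39 tested HIF targets were higher, with a median of 1.18, and 16 of 20 glycolysis genes, with a median of 1.04, whereas Ldhb was lower (log2 fold change -0.50 ± 0.16, adjusted p = 0.045). The difference was called for 3 HIF targets in the higher and 1 in the lower direction, and for 4 glycolysis genes in the higher direction. Slc2a1 had log2 fold changes of 2.40 in Collagen I and 1.15 in BME (difference 1.31 ± 0.22, adjusted p = 0.0014). Hk2 had 1.47 in Collagen I and 0.51 in BME (difference 1.02 ± 0.24, adjusted p = 0.021). Bnip3 had 2.25 in Collagen I and 3.07 in BME (difference -0.77 ± 0.21, adjusted p = 0.046). For Pgk1, with 1.40 in Collagen I and 1.38 in BME, the difference was 0.07 ± 0.12 (adjusted p = 0.85). Hif1a had 1.37 in Collagen I and 0.12 in BME (difference 1.30 ± 0.24, adjusted p = 0.0029).

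Cell cycle genes were the lists with the most called differences. The difference was called lower for 28 of the G2/M genes and 13 of the S phase genes. In BME 3 of 44 tested G2/M genes were lower, with a median of -0.13, and 19 of 32 S phase genes, with a median of -0.46. Single wells also differed in BME. The median cell cycle level was 30.5, 23.6 and 25.1 per 10000 counts in hypoxia-high wells of replicates 1, 2 and 3. In hypoxia-low wells it was 51.7, 58.1 and 56.6. Spearman's rho of the score with this level was -0.10 (286 wells), -0.15 (259 wells) and -0.16 (265 wells). Mki67 had 9.15 and 19.8 CPM in hypoxia-high sums, against 154 and 190.5 CPM in hypoxia-low sums of Collagen I, and 277, 163 and 183 CPM in hypoxia-high and 216, 180.4 and 198 CPM in hypoxia-low sums of BME (difference -3.53 ± 0.41, adjusted p = 2.3e-05). Ube2c had log2 fold changes of -2.97 in Collagen I and -0.13 in BME (difference -2.80 ± 0.32, adjusted p = 2.3e-05). Tubb4b had -2.12 in Collagen I and -0.01 in BME (difference -2.06 ± 0.23, adjusted p = 2.3e-05). Ranked within 2 strata of cell cycle level in both matrices, the difference was called for 184 genes. Mitochondrially encoded proteins were lower in both matrices, with medians of -0.83 and -0.53 and 11 of 13 called in each.

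Of single genes, Gja1, the gap junction protein connexin 43, had 1149 and 932 CPM in hypoxia-high sums, against 215 and 187 CPM in hypoxia-low sums of Collagen I, and 279.8, 309.7 and 232 CPM in hypoxia-high and 189, 185 and 201 CPM in hypoxia-low sums of BME (difference 2.03 ± 0.19, adjusted p = 2.5e-06). Mt1 had log2 fold changes of 2.27 in Collagen I and 0.61 in BME (difference 1.70 ± 0.16, adjusted p = 2.5e-06), Arrdc3 of 3.43 in Collagen I and 0.39 in BME (difference 3.11 ± 0.43, adjusted p = 1.9e-04), the phosphodiesterase Pde4b of 2.28 in Collagen I and 0.05 in BME (difference 2.28 ± 0.32, adjusted p = 1.9e-04) and Col6a1, a chain of collagen VI, of 1.88 in Collagen I and -0.04 in BME (difference 1.98 ± 0.25, adjusted p = 8.9e-05). Cdkn1a had 1.75 in Collagen I and 0.31 in BME (difference 1.49 ± 0.24, adjusted p = 7.2e-04). Igfbp2, which binds insulin-like growth factors, moved in opposite directions. It had 143 and 178 CPM in hypoxia-high sums, against 299.8 and 279 CPM in hypoxia-low sums of Collagen I (log2 fold change -0.86 ± 0.22, adjusted p = 9.2e-04), and 52.8, 187 and 86.7 CPM in hypoxia-high and 15.6, 53.5 and 30.5 CPM in hypoxia-low sums of BME (log2 fold change 1.60 ± 0.14, adjusted p = 3.6e-07). The difference was -2.41 ± 0.24 (adjusted p = 4.5e-06). The Collagen I call of Igfbp2 was lost with DESeq2.

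**Figure D5:**
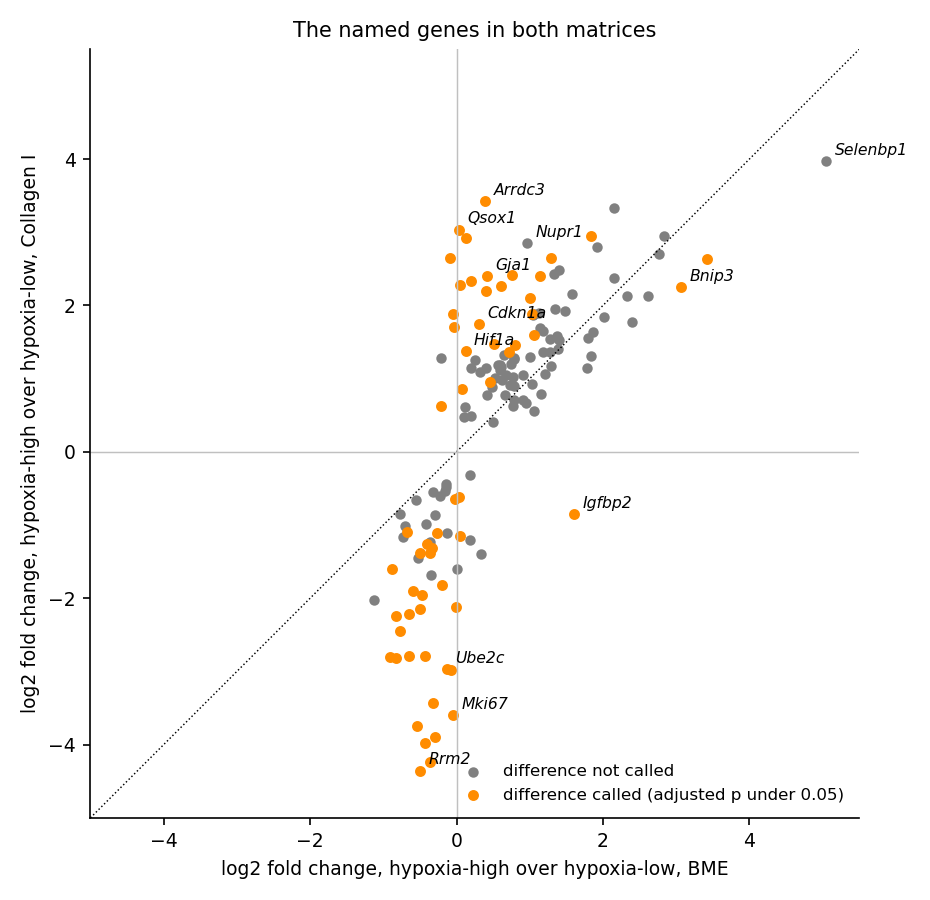
Log2 fold change of hypoxia-high over hypoxia-low wells in Collagen I (y axis) against BME (x axis) for 148 named genes outside the score, with the 60 genes whose difference was called in orange, the others in grey, and the line of equal change dotted. Most genes that were higher in Collagen I were also higher in BME, whereas Mki67 and Ube2c lie near 0 in BME, and Igfbp2 lies at -0.86 in Collagen I and 1.60 in BME.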

How the data were processed

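Live cells of MMTV-PyMT organoids were sequenced on 5 plates of 384 wells (3 BME, 2 Collagen I). The authors mapped the reads with BWA to mm10 and deposited expected counts per gene and well, which are distinct UMIs corrected for saturation. The version of BWA is not given in the sources used here. The values return whole UMI counts for 99.0% to 99.9% of entries (tolerance 0.011) with a UMI of 6 bases, whereas the labels name 4. Plates held 9077590 to 10911740 counts in BME, and 1631981 and 1091410 in Collagen I.

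ERCC spike-ins were removed, wells with over 2000 counts and under 8000 genes were kept, and the top and bottom 25% by score were summed per plate and rounded. Sums were compared in R 4.3.3 with edgeR 4.0.16 (TMM, filterByExpr, quasi-likelihood test, plate as block, Benjamini-Hochberg adjustment, threshold 0.05). With 2 plates no exact permutation test could reach this threshold. The difference from BME was an interaction term over 10 sums. Doublets were not called, and wells of 8000 genes or more were left out. Members and the 31 gene lists were chosen with earlier results of these data known.

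Genes were named by rule: the score genes, the 12 largest called changes per direction with the same sign in both plates and a mean of at least 100 CPM in the higher group, up to 4 called members per list by smallest p, each called member of the HIF target and glycolysis lists, Hif1a, Epas1, Vhl and Egln1, the 5 smallest p per direction of the difference from BME, and the 10 genes most like the score. The 10 most opposite genes and the uncalled list members named without values were added outside this rule. Of the 154 genes so chosen, the 5 score genes and 92 others are named in the text, and some are not reported here. Alternatives were DESeq2 1.42.0, limma-voom 3.58.1, other scaling, filters, depth, score weights, left-out plates and strata. On simulated counts 30% of 2-fold and 85% of 4-fold changes were recovered in Collagen I (4971 genes, 6 false calls). Gene positions are from GENCODE on GRCm38 and promoters from RefSeq on GRCm38.p6.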

Additional observations from a re-analysis of the deposited data

Results flagged for a closer look

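For 44 of the genes named in the text, the log2 fold change of hypoxia-high over hypoxia-low wells differed between Collagen I and BME by the test of the difference itself (edgeR quasi-likelihood test, 2 plates against 3, adjusted p under 0.05 over 10440 genes). The values in brackets are Collagen I minus BME on the log2 scale, 20 of them positive and 24 negative. Cell cycle genes had the most negative values as a group: Ccnb1 (-3.88), Rrm2 (-3.85), Birc5 (-3.59), Mki67 (-3.53), Cdc20 (-3.20), Top2a (-2.89), Ube2c (-2.80), Mcm7 (-2.33), Tubb4b (-2.06) and Pcna (-1.43). Genes of growth and ribosome biogenesis were also negative: Srm (-1.87), Nme1 (-1.64), Hspd1 (-1.60), Nop56 (-1.37) and Ran (-1.27). Genes of respiration had smaller values: Cycs (-1.53), mtCo3 (-0.84), Atp5g1 (-0.80) and mtNd3 (-0.68). Other negative differences were those of Phgdh (-3.54), Igfbp2 (-2.41), Manf (-0.79), Bnip3 (-0.77) and 2610528A11Rik (-0.75). Of these, Bnip3 and 2610528A11Rik were higher in hypoxia-high wells of both matrices, by more in BME. Among genes of the hypoxia response, glycolysis and collagen hydroxylation the difference was positive for Slc2a1 (1.31), Hif1a (1.30), Plod2 (1.15), Hk2 (1.02), Ddit4 (0.90), Bhlhe41 (0.72), Gapdh (0.69), Gpi1 (0.59) and P4hb (0.54). Other positive differences were those of Arrdc3 (3.11), Nt5e (2.82), Pde4b (2.28), Trib3 (2.20), Gja1 (2.03), Col6a1 (1.98), Inhba (1.81), Tgfa (1.73), Mt1 (1.70), Cdkn1a (1.49) and Lgals3 (1.41). Leaving out Collagen I replicate 1 kept 21 of the 44 calls and leaving out BME replicate 1 kept 27. In the stratum of lower cell cycle level 3 of the 44 were called and 8 changed sign, and in wells thinned to 2000 transcripts 18 of 43 were called. The part of the sequencing run and of depth in these differences was not tested.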

How the results depend on the processing

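Of the 1444 calls in Collagen I, none was called in the opposite direction under any of the 22 alternatives, but the number of calls changed. DESeq2 called 184 genes, wells thinned to 2000 transcripts gave 176, ranking within 2 strata of cell cycle level 914 and the stratum of lower cell cycle level alone 89. Leaving out 1 Collagen I plate gave 725 to 1083 calls, in a fit with the BME sums whose spread the lone plate is assumed to share. Without the replicate block 1245 genes were called. The numbers pair the sums because both sums of a pair come from the same plate. For the difference from BME, with 329 calls, DESeq2 gave 174, limma-voom 101, no filter on low counts 520, no replicate block 101, thinned wells 50, leaving out the top 5% of wells by counts 202, 2 strata of cell cycle level 184 and the lower stratum alone 29, and leaving out 1 plate 85 to 513. For BME, with 1594 calls, DESeq2 gave 437, no replicate block 441, thinned wells 169, equal weights of the score genes 903, 2 strata of cell cycle level 991 and the lower stratum alone 556, and leaving out 1 plate 489 to 1080. Scaling by library size only gave 650 higher and 778 lower calls in Collagen I, 1115 and 455 in BME and 67 and 404 for the difference. All 5 held-out score genes were called except under the lower stratum alone and without Collagen I replicate 1, where 4 were called.

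Of 92 genes named in the text outside the score, 37 were called under each alternative that tested them. DESeq2 kept 68 of 89, and scaling by library size kept all 92. In the stratum of lower cell cycle level 5 changed sign with adjusted p over 0.5, namely Aldoc (-0.0069), Inhba (-0.010), Vim (-0.17), Krt14 (-0.36) and Krt8 (-0.028). There the difference from BME also changed sign for Cdc20 (4.56), Plod2 (-0.13), Bhlhe41 (-0.075), Gpi1 (-0.12), Gapdh (-0.12), P4hb (-0.19), Pcna (0.34) and mtNd3 (0.45), all with adjusted p over 0.5. Leaving out Collagen I replicate 1 ended the calls of Vhl, Mxi1, Ankrd37, Mif, Ppp1r3c, Pdk3, Hk1, Inhba, Vim, Epcam, Tgfa, Krt18, Krt8 and Igfbp2, and leaving out replicate 3 those of Epas1, Vhl, Car12, Pdk3, Ccnd1 and Krt14. The cause of these changes was not tested. The strata of depth and of cell cycle level were chosen after seeing the data. With 327758 and 201878 counts in the hypoxia-high sums, a gene at 0 in both is limited by 3 counts over the group.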
